A study of Rattus norvegicus with 14 samples.

Results

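The genes described here are the ligands and receptors of axon guidance in PCCL3 cells, a rat thyroid follicular cell line that still makes thyroglobulin. They were chosen by gene symbol, as every gene of the count table in the families of semaphorins, plexins, neuropilins, ephrins, Eph receptors, netrins, Unc5 receptors, Slit ligands and Robo receptors, together with Dcc, Reln, Vldlr and Dab1. This gave 63 of the 16816 genes in the table, of which 34 code for ligands, 28 for receptors and 1, Dab1, for an adaptor inside the cell. Neo1 and Lrp8 had no row in the table under these symbols. Statements on a family cover only its genes with a row.

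RNA-seq compared 2 stably transfected lines. PPFP cells express PPFP, the human fusion of the thyroid transcription factor PAX8 with the nuclear receptor PPARG that occurs in thyroid carcinoma, with a Myc tag at its amino end, and EV cells carry the empty vector. Each line received 1 μM pioglitazone, a PPARG agonist, or vehicle for 16 hours, which made 4 groups of 3 libraries from 3 independent experiments. All groups grew in medium with serum, thyrotropin, insulin, transferrin and hydrocortisone. Each construct was studied in a single stable line, so that an effect of PPFP and any other difference between the lines cannot be told apart.

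Axon guidance ligands are secreted or membrane-bound proteins that attract or repel growing axons, and most of them also act on epithelial and endothelial cells, where they alter adhesion, migration and branching. Semaphorins bind plexins, with neuropilins as co-receptors of the secreted class 3 members, while ephrins and Eph receptors signal in both directions between touching cells. Netrins bind Dcc and the Unc5 receptors, Slit proteins bind Robo receptors, and reelin binds Vldlr and Lrp8 and passes its signal to Dab1.

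Total counts on genes were between 23724703 and 35240176 per library, and 3 counts, the level treated as the floor of detection, corresponded to between 0.081 and 0.127 normalized CPM (counts scaled to the size of the library). Pparg, whose counts do not separate the rat gene from the fusion, was at 1.77, 1.81 and 1.23 CPM in EV cells and 46.7, 59.8 and 54.4 CPM in PPFP cells without pioglitazone, and Pax8 differed by -0.08 (SE 0.09, adjusted p = 0.469) on the log2 scale. The thyroid label was borne out by the listed thyroid genes. Slc26a4 was near the floor in EV cells, at group means of 0.134 CPM without and 0.169 CPM with pioglitazone. All 14 genes were above the floor in at least 1 library. Without pioglitazone 5 of them were called as lower in PPFP cells, among them Foxe1, Slc5a5 and Cdh16, and 3 as higher, which were Duox2 at 2.21 (SE 0.11, adjusted p = 9.81e-06), Duoxa2 at 2.13 (SE 0.13, adjusted p = 2.09e-05) and Slc26a4 at 3.32 (SE 0.43, adjusted p = 0.00067) on the log2 scale. Of the epithelial markers, Cdh1 was between 10.8 and 13.1 CPM as a group mean, Epcam was below 1 CPM and Krt18 was at the floor, while Krt8 fell from 3.59 to 0.0493 CPM. Neuron markers, which are of interest here because neurons use the same genes, were near zero, with 2 of 12 above the floor and a summed level of 0.216 to 0.646 CPM in EV and 0.296 to 0.587 CPM in PPFP libraries. Of the C cell list 1 of 6 genes was above the floor, of the endothelial list 4 of 7, of the fibroblast list 3 of 8, led by Pdgfra at 21.2 to 29.4 CPM, and of the leukocyte list 3 of 7.

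Not all members were measured. No library had a count for Dab1, Dcc, Epha3, Epha5, Unc5d or Vldlr, and Ephb1, Plxnb3, Robo2, Robo4, Sema3d and Sema6d had at most 3 counts in every library. Another 6 (Epha1, Ntn5, Robo1, Sema3e, Slit3 and Unc5c) exceeded 3 counts somewhere but were too low to test, which left 38 members tested in all 4 pairwise comparisons and 7 tested in some. A count of 0 at this depth allows a level of up to 3 counts and does not show that a gene is silent.

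Promoter sequences are shown for 4 members whose RNA was nearly confined to 1 of the lines, Reln and Nrp1 in PPFP cells and Sema6b and Ephb6 in EV cells. They are the 250 bases before each gene's start in RefSeq (build GRCr8), read 5′ to 3′ on the strand of the gene, with CG dinucleotides in capitals. In RefSeq, 50 of the 63 members had a promoter entry.
Reln, chr4:13628318-13628567, plus strand: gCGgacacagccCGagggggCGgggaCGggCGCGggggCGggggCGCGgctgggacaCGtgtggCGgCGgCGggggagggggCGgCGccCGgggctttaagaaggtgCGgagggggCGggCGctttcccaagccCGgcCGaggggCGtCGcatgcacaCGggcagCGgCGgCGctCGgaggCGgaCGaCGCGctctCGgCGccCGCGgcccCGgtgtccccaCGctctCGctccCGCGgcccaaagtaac
Nrp1, chr19:73256307-73256556, plus strand: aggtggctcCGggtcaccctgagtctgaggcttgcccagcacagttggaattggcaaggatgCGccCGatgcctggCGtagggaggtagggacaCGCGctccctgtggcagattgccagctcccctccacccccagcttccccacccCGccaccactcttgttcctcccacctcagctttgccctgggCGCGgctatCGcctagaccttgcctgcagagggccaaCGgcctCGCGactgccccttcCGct
Sema6b, chr9:1047743-1047992, minus strand: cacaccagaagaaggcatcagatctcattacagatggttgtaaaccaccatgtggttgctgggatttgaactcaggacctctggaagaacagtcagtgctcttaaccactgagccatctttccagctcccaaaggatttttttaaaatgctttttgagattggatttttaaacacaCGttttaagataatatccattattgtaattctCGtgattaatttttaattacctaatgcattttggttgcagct
Ephb6, chr4:71458382-71458631, plus strand: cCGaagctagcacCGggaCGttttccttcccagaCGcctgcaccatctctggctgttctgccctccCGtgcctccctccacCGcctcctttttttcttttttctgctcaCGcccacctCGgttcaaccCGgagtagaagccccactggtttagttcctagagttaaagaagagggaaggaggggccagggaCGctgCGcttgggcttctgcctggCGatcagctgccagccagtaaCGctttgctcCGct

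These 4 windows differed in base composition. The Reln window was 80% G and C with 41 CG dinucleotides and the Sema6b window 37.2% with 2, while those of Nrp1 (66.4%) and Ephb6 (59.2%) each held 14. Across the 52 promoters of members the median was 62.2% G and C, against 51.2% over all 33469 promoters in the table. The nuclear receptor half-site AGGTCA, searched on both strands, was in 3 of the 52 member promoters (5.77%) and in 14.1% of all promoters. Its matches lay in the windows of Dab1, Robo4 and Sema3g, and in Sema3g, the 1 of them that was tested, it lay from base -171 to base -166 relative to the gene's start. The DR1 element, in which 2 copies of this half-site follow each other with 1 base between them, was in 0 member promoters and 0.0508% of all. The paired-domain core GTCACGC was in the promoter of Epha10 and in 1.74% of all promoters. No match was found in the 4 windows printed above for these letters.

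Genes are referred to below as called where the fold change was above 2 and the adjusted p under 0.05. Without pioglitazone, 17 of the 43 members tested were called between PPFP and EV cells, 39.5% of them against 14.6% of all 10264 genes tested. Of these, 6 were higher (14% of members, against 7.27% of all genes) and 11 lower in PPFP cells (25.6%, against 7.31%). With pioglitazone in both lines, 25 of 43 members were called, 58.1% against 19.7% of all genes, with 8 higher (18.6%, against 9.3%) and 17 lower (39.5%, against 10.4%). At an adjusted p under 0.05 and any fold change, 30 members passed without pioglitazone (69.8%, against 45.2% of all genes) and 32 with it (74.4%, against 52.7%). The libraries of the lines did not overlap for 35 members without pioglitazone (81.4%, against 56% of all genes) and for 34 with it (79.1%, against 62.9%). The median log2 fold change of the members tested was -0.356 without and -0.432 with pioglitazone, while that of all genes was 0.002 and 0.012. In bulk RNA, fewer cells with a transcript and less of it per cell cannot be told apart.

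All 17 members called without pioglitazone were also called with it, in the same direction, and they made up 68% of the 25. The comparisons used different libraries of the same lines. Ligands gave 11 called of 28 tested without pioglitazone (4 higher, 7 lower) and receptors 6 of 15 (2 higher, 4 lower). Of all genes 14.6% were called there (7.27% higher, 7.31% lower). With pioglitazone the ligands gave 17 of 28 (6 higher, 11 lower) and the receptors 8 of 15 (2 higher, 6 lower), against 19.7% of all genes (9.3% higher, 10.4% lower). The 5 members Ephb6, Nrp1, Ntn1, Reln and Unc5b passed the filter on low counts through 1 of the lines alone and were all called, and a gene that passes in this way nearly has to differ between them. Of the other 38 members, which had at least 1 library above its level in each line, 12 were called without pioglitazone (31.6%, against 11.4% of the 9887 genes like them in this) and 20 with it (52.6%, against 15.9% of 9820).

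**Figure D1:**
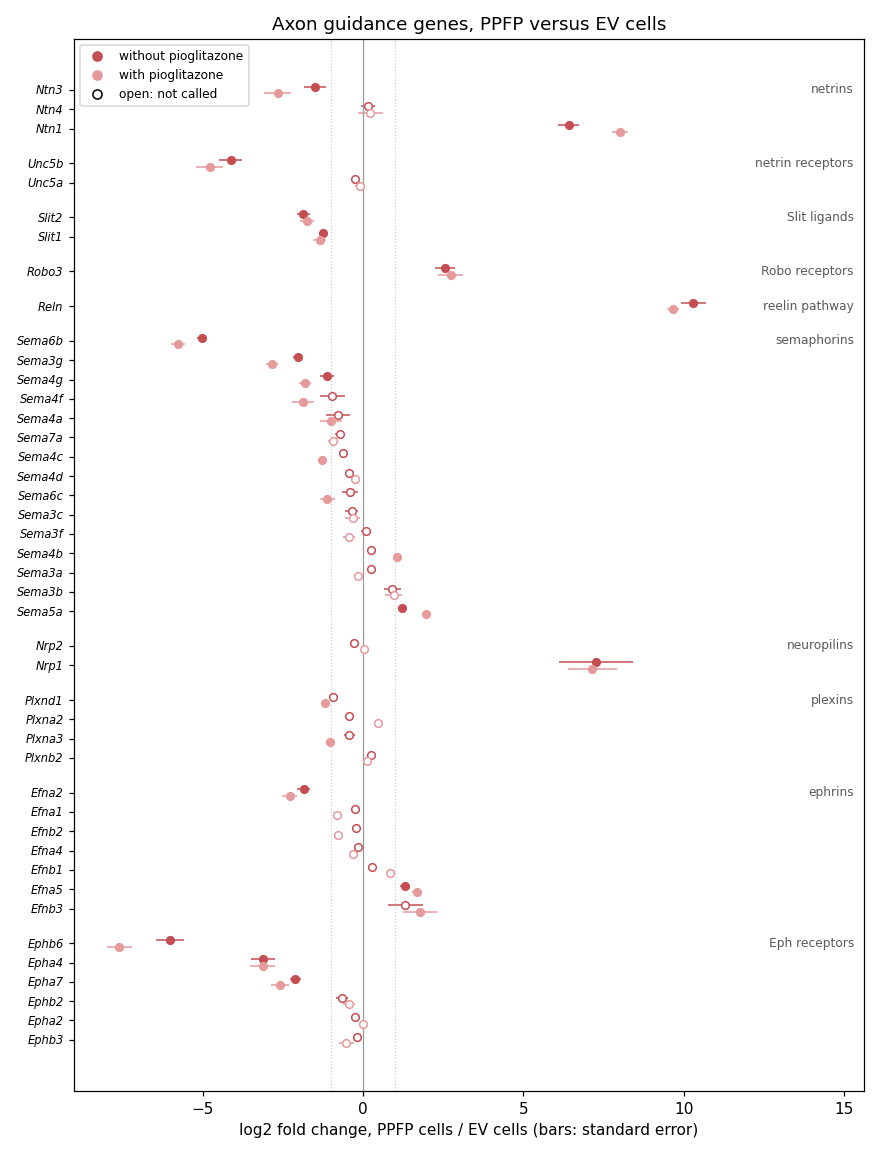
Log2 fold change of PPFP cells over EV cells (x axis) for each member tested, by family, without (dark) and with (light) pioglitazone; bars are standard errors over 3 libraries per group, filled points are called, and the fitted values of Reln, Ntn1, Nrp1 and Ephb6 depend on how counts near 0 are handled. Called points lie on both sides of 0, with 6 higher and 11 lower without pioglitazone, and the points farthest to the left are Ephb6, Sema6b and Unc5b.

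Reelin showed the widest gap between the lines. Reln, which codes for the large secreted protein that positions migrating neurons, had 0, 0 and 1 counts in the EV libraries without pioglitazone and 2, 1 and 1 with it. In PPFP cells it was at 16.4, 22 and 19.8 CPM without and 36.3, 36.2 and 36.9 CPM with pioglitazone. Measured against 3 counts per EV library, PPFP cells had at least 192-fold more Reln RNA without pioglitazone (adjusted p = 3.79e-06) and at least 384-fold more with it (adjusted p = 4e-07). The receptor gene Vldlr and the adaptor gene Dab1 had no count in any library of either line.

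The netrin ligands moved in different directions. Ntn1, the netrin that guides commissural axons, had 3, 1 and 2 counts in EV libraries without pioglitazone and 2, 1 and 1 with it, all at the floor, but 5.87, 6.84 and 5.32 CPM in PPFP cells without and 11, 12.3 and 11.4 CPM with pioglitazone. Against the floor, PPFP cells had at least 59.4-fold more without pioglitazone (adjusted p = 9.12e-06) and at least 122-fold more with it (adjusted p = 1.65e-06). Ntn3, another secreted netrin, went the opposite way. Its level was 3.58, 3.68 and 1.99 CPM in EV cells and 0.697, 1.33 and 1.22 CPM in PPFP cells without pioglitazone, and 4.27, 3.55 and 2.08 against 0.265, 0.522 and 0.729 CPM with it. No PPFP library reached the lowest EV library of the same treatment, and the log2 fold change was -1.49 (SE 0.35, adjusted p = 0.0101) without and -2.66 (SE 0.41, adjusted p = 0.00141) with pioglitazone. Ntn4, a netrin of basement membranes, was tested and not called, with log2 fold changes of 0.14 and 0.23.

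Of the netrin receptors, Unc5b, a dependence receptor that mediates repulsion, was lower in PPFP cells. EV libraries held 4.59, 4.52 and 2.64 CPM without and 4.62, 5.37 and 3.45 CPM with pioglitazone, whereas PPFP libraries held 0.183, 0.222 and 0.253 CPM without and 0.0378, 0.261 and 0.166 CPM with pioglitazone, from 1 to 7 counts each. The log2 fold change was -4.12 (SE 0.36, adjusted p = 0.000102) without and -4.78 (SE 0.42, adjusted p = 0.000106) with pioglitazone. Unc5a, the other receptor tested, gave -0.24 and -0.10 and did not pass. Unc5c had at most 8 counts in a library, and Dcc, the receptor for attraction, and Unc5d had none.

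**Figure D2:**
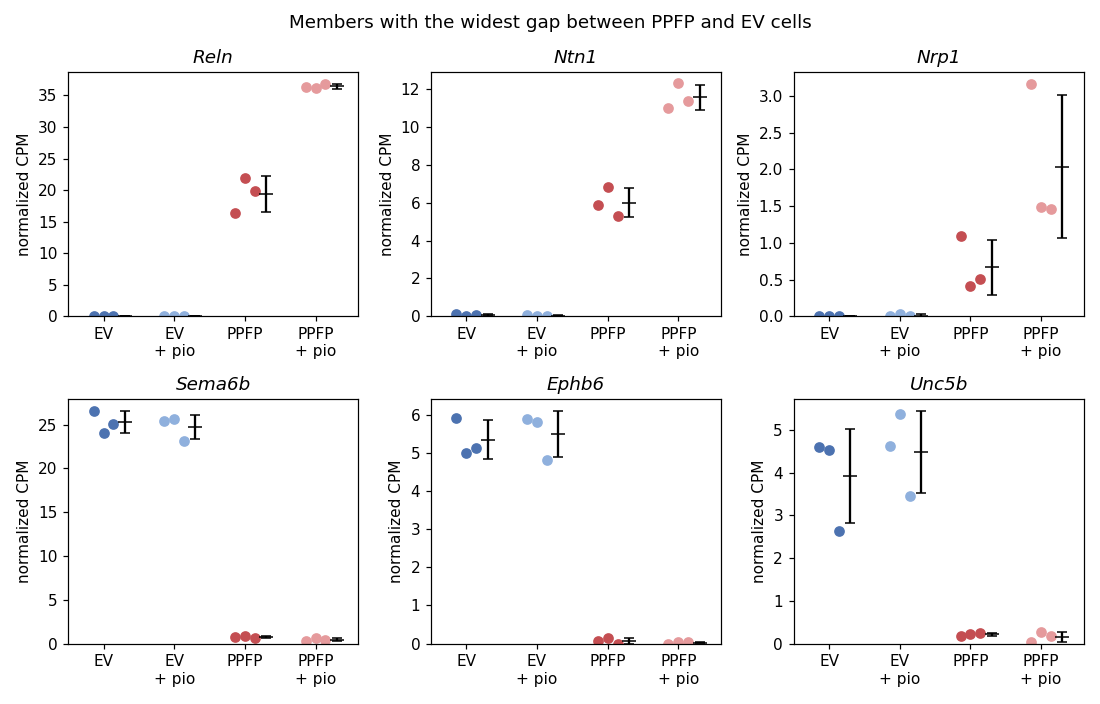
Normalized CPM (y axes, each from 0) of the 6 members with the widest gaps between the lines, with 1 point per library in the 4 groups and the mean ± SD of 3 libraries beside them. Reln, Ntn1 and Nrp1 are at or near 0 in all 6 EV libraries, while Sema6b, Ephb6 and Unc5b are below 1 CPM in all 6 PPFP libraries.

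Both Slit genes that could be tested were lower in PPFP cells and the 1 Robo receptor that could be tested was higher. Slit2, a secreted repellent, was at 112, 154 and 87.8 CPM in EV and 28.3, 33.3 and 34.4 CPM in PPFP libraries without pioglitazone, and at 115, 162 and 92.6 CPM in EV and 32.6, 38.2 and 37.3 CPM in PPFP cells with it. EV library 2 was the highest in both treatments, and all EV values of Slit2 lay above all PPFP values. The log2 fold change of Slit2 was -1.86 (SE 0.21, adjusted p = 0.000362) without and -1.74 (SE 0.20, adjusted p = 0.000386) with pioglitazone.

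Slit1, a related repellent, was at 22.5, 17.7 and 22 CPM without and 22.2, 13.6 and 21.6 CPM with pioglitazone in EV cells and at 8.81, 9.09 and 7.85 CPM without and 8.2, 7.31 and 6.56 CPM with pioglitazone in PPFP cells. Its groups did not overlap, with log2 fold changes of -1.25 (SE 0.13, adjusted p = 0.000262) and -1.35 (SE 0.21, adjusted p = 0.00135). Slit3 had at most 4 counts in a library. Robo3, a Robo family member that alters how commissural axons respond to Slit, was at 1.54, 1.17 and 0.857 CPM without and 1.27, 1.06 and 0.359 CPM with pioglitazone in EV cells and at 5.03, 9.17 and 6.63 CPM without and 4.61, 6.75 and 6.56 CPM with pioglitazone in PPFP cells. Each PPFP library was above each EV library, and the log2 fold change was 2.56 (SE 0.31, adjusted p = 0.000507) without and 2.73 (SE 0.39, adjusted p = 0.001) with pioglitazone. The Slit receptors Robo1 and Robo2 had at most 5 and 1 counts in a library.

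Among the co-receptors and receptors of semaphorins, Nrp1 stood apart. Nrp1, which also binds vascular endothelial growth factor, had 0, 0 and 0 counts in EV libraries without and 0, 1 and 0 with pioglitazone. In PPFP cells it was at 1.1, 0.407 and 0.507 CPM without and 3.17, 1.49 and 1.46 CPM with pioglitazone, from 11 to 84 counts, with library 1 the highest in both treatments. Against the floor, its level in PPFP cells was at least 6.63-fold higher without pioglitazone (adjusted p = 0.00432) and at least 21.5-fold higher with it (adjusted p = 0.000237). Endothelial cells also express Nrp1, and of their markers Cdh5 had no count and Pecam1 at most 2 counts in any library. The whole list, led by Vwf, summed to between 0.251 and 1.14 CPM in EV and between 0.954 and 1.7 CPM in PPFP libraries. Vwf was called as higher in PPFP cells without pioglitazone, at 1.17 (SE 0.38, adjusted p = 0.0382), and not with it, at 0.19 (SE 0.44, adjusted p = 0.743). Tie1 was too low to test, with its highest group mean, 0.474 CPM, in PPFP cells with pioglitazone. The part of endothelial cells in the Nrp1 result was not tested. The related Nrp2 differed little, with log2 fold changes of -0.27 (SE 0.09, adjusted p = 0.0463) without and 0.03 (SE 0.07, adjusted p = 0.714) with pioglitazone.

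Of the plexins tested, none was called without pioglitazone, and Plxnd1 and Plxna3 were called with it. Plxnd1, a receptor of vascular patterning, was at 28.3, 24.9 and 28.1 CPM in EV and 12.4, 16.2 and 13.6 CPM in PPFP cells without pioglitazone, and at 28.2, 23.4 and 28.6 CPM in EV and 9.87, 12.5 and 12.3 CPM in PPFP cells with it. The lines did not overlap in either treatment, at log2 fold changes of -0.93 (SE 0.13, adjusted p = 0.000848) and -1.18 (SE 0.14, adjusted p = 0.000424). Plxna3, which pairs with neuropilins for class 3 semaphorins, was at 26.7, 23.6 and 20.4 CPM in EV and 14.6, 20.2 and 17.2 CPM in PPFP cells without, and at 27.9, 24.3 and 21.7 CPM in EV and 11.2, 11.6 and 12.6 CPM in PPFP cells with pioglitazone. The gap in Plxna3 between the lines was -0.42 (SE 0.16, adjusted p = 0.065) without and -1.03 (SE 0.13, adjusted p = 0.000498) with the drug. Plxna2, a receptor of class 6 semaphorins, was lower in PPFP cells without pioglitazone, -0.43 (SE 0.13, adjusted p = 0.0307), and higher with it, 0.48 (SE 0.12, adjusted p = 0.0105). Plxnb2, a receptor of class 4 semaphorins, gave 0.26 (SE 0.09, adjusted p = 0.0431) and 0.14 (SE 0.09, adjusted p = 0.244).

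Of the 15 semaphorins tested, 4 were called without pioglitazone and 9 with it, where 14.6% and 19.7% of all genes were. Sema6b, a transmembrane ligand of class A plexins, showed the largest loss. EV libraries held 26.6, 24.1 and 25.1 CPM without and 25.4, 25.7 and 23.1 CPM with pioglitazone, and PPFP libraries held 0.807, 0.887 and 0.591 CPM without and 0.34, 0.634 and 0.364 CPM with pioglitazone. The highest PPFP library was thus far below the lowest EV library, with log2 fold changes of -5.01 (SE 0.17, adjusted p = 2.86e-06) and -5.76 (SE 0.22, adjusted p = 3.99e-06).

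Sema3g, a secreted class 3 member, was at 32.1, 24.3 and 28.5 CPM without and 28.9, 19.3 and 27.6 CPM with pioglitazone in EV cells and at 6.9, 6.58 and 6.88 CPM without and 3.4, 3.21 and 3.84 CPM with pioglitazone in PPFP cells. PPFP cells were lower without overlap, at -2.04 (SE 0.13, adjusted p = 2.59e-05) and -2.83 (SE 0.19, adjusted p = 3.31e-05) on the log2 scale. Sema4g, a transmembrane class 4 member, was at 30.8, 28.5 and 24.5 CPM without and 29.8, 27 and 22.3 CPM with pioglitazone in EV cells and at 8.92, 15 and 14.1 CPM without and 5.71, 8.65 and 7.92 CPM with pioglitazone in PPFP cells. It was also lower without overlap, at -1.12 (SE 0.21, adjusted p = 0.00361) and -1.80 (SE 0.19, adjusted p = 0.000251).

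The semaphorin called as higher in both comparisons was Sema5a, a transmembrane protein with thrombospondin repeats that has been described as both attractive and repulsive. Its level was 99.7, 89.1 and 98.9 CPM in EV and 222, 223 and 218 CPM in PPFP cells without pioglitazone, and 97.9, 88.1 and 94.6 CPM in EV and 378, 353 and 337 CPM in PPFP cells with it. Replicates lay close together and the lines did not overlap, with log2 fold changes of 1.23 (SE 0.08, adjusted p = 2.4e-05) and 1.96 (SE 0.08, adjusted p = 5.2e-06).

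The other 5 semaphorins, all of them transmembrane ligands, were called with pioglitazone alone. Sema4b was at 35.9, 36.8 and 37.1 CPM without and 38.5, 37.3 and 38.1 CPM with pioglitazone in EV cells and at 44.2, 44.1 and 41.1 CPM without and 76.3, 79.1 and 77.4 CPM with pioglitazone in PPFP cells. The PPFP libraries were the higher ones in both treatments, at 0.26 (SE 0.08, adjusted p = 0.0293) and 1.06 (SE 0.07, adjusted p = 2.95e-05). Sema4c, a ligand of Plxnb2, was at 75.8, 71 and 73.1 CPM without and 75.3, 63.5 and 71.8 CPM with pioglitazone in EV cells and at 39.9, 52.5 and 49.7 CPM without and 25.3, 29.2 and 30.3 CPM with pioglitazone in PPFP cells. Here the PPFP libraries were the lower ones, at -0.61 (SE 0.12, adjusted p = 0.00433) and -1.28 (SE 0.11, adjusted p = 9.86e-05).

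Sema4f was at 4.72, 5.19 and 2.19 CPM without and 4.56, 4.03 and 2.69 CPM with pioglitazone in EV cells and at 1.36, 2.51 and 2.32 CPM without and 0.567, 1.19 and 1.26 CPM with pioglitazone in PPFP cells. EV library 3 fell among the PPFP libraries without pioglitazone but above them with it, and the log2 fold changes were -0.95 (SE 0.38, adjusted p = 0.0767) and -1.87 (SE 0.34, adjusted p = 0.00312). Sema6c was at 6.63, 6.09 and 7.23 CPM without and 7.59, 5.69 and 7 CPM with pioglitazone in EV cells and at 3.27, 6.21 and 5.4 CPM without and 2.23, 3.36 and 3.61 CPM with pioglitazone in PPFP cells. Its libraries overlapped without pioglitazone, -0.40 (SE 0.24, adjusted p = 0.21), and not with it, -1.11 (SE 0.23, adjusted p = 0.00512). Sema4a was low in both lines, at 0.87, 0.803 and 0.685 CPM without and 0.918, 0.703 and 0.646 CPM with pioglitazone in EV cells and at 0.257, 0.628 and 0.464 CPM without and 0.227, 0.485 and 0.397 CPM with pioglitazone in PPFP cells, and gave -0.78 (SE 0.36, adjusted p = 0.118) and -1.002 (SE 0.34, adjusted p = 0.0416). Its call with pioglitazone rests on the setting, since the adjusted p was 0.0774 with DESeq2 and between 0.037 and 0.131 with 1 library left out.

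The 6 semaphorins called in neither comparison included Sema7a, a membrane-anchored ligand of integrins, which passed as lower in both at -0.72 (SE 0.17, adjusted p = 0.0106) and -0.94 (SE 0.16, adjusted p = 0.00226). Sema3b, a secreted ligand known as a tumor suppressor, passed as higher in both at 0.91 (SE 0.27, adjusted p = 0.025) and 0.95 (SE 0.25, adjusted p = 0.0168). Sema4d, the ligand of class B plexins, passed as lower without pioglitazone at -0.43 (SE 0.12, adjusted p = 0.0182) and was at -0.24 (SE 0.10, adjusted p = 0.0755) with it (interaction adjusted p = 0.75, or 0.0384 with the replicate block within each line). Sema3a, Sema3c and Sema3f passed in neither, with log2 fold changes from -0.43 to 0.26. Sema5b, the other class 5 member, was too low to test between the lines, and had 14, 8 and 17 counts in EV libraries without and 12, 8 and 11 with pioglitazone. PPFP libraries had 0, 0 and 1 counts without and 0, 0 and 1 with it, all below the EV libraries.

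Of the 7 ephrins in the count table, all of which could be tested, 2 were called without pioglitazone and 3 with it, beside 14.6% and 19.7% of all genes. Of these, Efnb3 lost the threshold in 4 of 13 alternatives. Efna2, a lipid-anchored ligand, was at 9.07, 8.23 and 10.4 CPM without and 7.1, 7.29 and 9.12 CPM with pioglitazone in EV cells and at 1.98, 2.99 and 2.58 CPM without and 1.25, 2.09 and 1.39 CPM with pioglitazone in PPFP cells. PPFP cells were lower without overlap, at -1.85 (SE 0.19, adjusted p = 0.000246) and -2.28 (SE 0.23, adjusted p = 2e-04). Efna5, of the same class, was at 5.39, 4.95 and 5 CPM without and 5.35, 4.96 and 4.45 CPM with pioglitazone in EV cells and at 11.3, 13.7 and 12.2 CPM without and 16, 15.9 and 14.3 CPM with pioglitazone in PPFP cells. This ligand was higher in PPFP cells without overlap, at 1.30 (SE 0.13, adjusted p = 0.000242) and 1.67 (SE 0.13, adjusted p = 5.39e-05).

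Efnb3, a transmembrane ephrin of the midline, was near the floor at 0.469, 0.402 and 0.103 CPM without and 0.432, 0.0959 and 0.108 CPM with pioglitazone in EV cells and 0.477, 1.18 and 0.76 CPM without and 0.643, 0.858 and 0.795 CPM with pioglitazone in PPFP cells, and gave 1.32 (SE 0.55, adjusted p = 0.0874) and 1.78 (SE 0.52, adjusted p = 0.0242). With 1 library left out, the adjusted p of Efnb3 with pioglitazone was between 0.0029 and 0.0711. Among the others, Efna1 fell at -0.26 (SE 0.08, adjusted p = 0.0281) and -0.81 (SE 0.09, adjusted p = 0.000381), and Efnb1, which signals back into its own cell, rose at 0.28 (SE 0.10, adjusted p = 0.0487) and 0.84 (SE 0.08, adjusted p = 0.000167). Efnb2 and Efna4 passed as lower with pioglitazone, at -0.79 (SE 0.13, adjusted p = 0.00169) and -0.32 (SE 0.10, adjusted p = 0.0294), and their values without it were -0.23 and -0.15. The threshold was lost by Efnb1 without pioglitazone in 11 of 14 alternatives (adjusted p up to 0.114) and by Efna4 with it in 5 of 14 (up to 0.121).

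Of the 6 Eph receptors tested, 3 were called as lower in both comparisons, where 7.31% of all genes were called as lower without and 10.4% with pioglitazone. Of these 3, Ephb6 passed the filter on low counts through EV cells alone, so that its call was nearly fixed in advance. Ephb6, an Eph receptor without kinase activity, was at 5.93, 4.99 and 5.14 CPM without and 5.89, 5.82 and 4.81 CPM with pioglitazone in EV cells. PPFP libraries had 2, 4 and 0 counts without and 0, 1 and 1 with pioglitazone, so that all 6 stayed far below the EV libraries. The log2 fold change was -6.03 (SE 0.44, adjusted p = 4.49e-05) without pioglitazone, and with it, where PPFP cells were at the floor, Ephb6 was at least 50.9-fold lower (adjusted p = 1.05e-05).

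Epha4, which binds both ephrin classes, was at 17.5, 34.3 and 12.9 CPM without and 18.2, 36.2 and 12.7 CPM with pioglitazone in EV cells and at 2.38, 2.55 and 2.41 CPM without and 2.53, 2.28 and 2.68 CPM with pioglitazone in PPFP cells. EV library 2 was the highest in both treatments, the PPFP libraries lay close together, and the lines did not overlap, at -3.12 (SE 0.38, adjusted p = 0.000507) and -3.13 (SE 0.40, adjusted p = 0.000584). Epha7, a receptor of the A class, was at 8.1, 10.4 and 9.08 CPM without and 7.86, 10.6 and 8.61 CPM with pioglitazone in EV cells and at 2.05, 2.33 and 1.9 CPM without and 1.06, 1.19 and 2.12 CPM with pioglitazone in PPFP cells. It too was lower without overlap, at -2.11 (SE 0.17, adjusted p = 7.32e-05) and -2.58 (SE 0.28, adjusted p = 0.000286). Epha2, the receptor often raised in carcinomas, and Ephb2 passed as lower without pioglitazone, at -0.26 (SE 0.09, adjusted p = 0.0445) and -0.65 (SE 0.18, adjusted p = 0.022), and were at -0.01 (SE 0.09, adjusted p = 0.929) and -0.42 (SE 0.19, adjusted p = 0.0949) with it. Epha2 lost the threshold in 7 of 14 alternatives, and the interaction passed for neither (adjusted p = 0.502 and 0.876), though for Epha2 it did with the replicate block within each line (adjusted p = 0.00217). Ephb3 passed in neither, at -0.18 and -0.52. Epha10 was too low to test between the lines, with 21, 11 and 9 counts in EV and 4, 8 and 7 in PPFP libraries without pioglitazone and 20, 8 and 9 in EV and 2, 2 and 2 in PPFP libraries with it. The counts of Epha10 in PPFP libraries with pioglitazone lay at the floor and below all others.

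With pioglitazone PPFP cells had more Reln, Ntn1, Plxna2, Sema4b and Sema5a RNA and less Sema3g, Sema4c and Efna1 RNA, each by less than 2-fold. Of 41 members tested, 0 were called by edgeR's quasi-likelihood test, against 2.42% of all genes, while 24 had an unadjusted p under 0.05 (58.5%, against 28.8%), and DESeq2 and edgeR's classic test each called 1, Nrp1. At an adjusted p under 0.05 and any fold change, 14 members passed (34.1%, against 14.8% of all genes), 7 higher (17.1%, against 7.63%) and 7 lower (17.1%, against 7.13%) with pioglitazone. The libraries with and without pioglitazone did not overlap for 23 members (56.1%, against 34.1%). With the replicate number as a block, 34 passed (82.9%, against 51.6% of all genes) and 3 were called (7.32%, against 3.2%), namely Nrp1, which was higher, and Ntn3 and Sema4f, which were lower. All 14 were among the 34, and of the 20 that passed with the block alone those with the smallest adjusted p were Sema3f at -0.57 (SE 0.04, adjusted p = 6.62e-11), Sema4g at -0.77 (SE 0.09, adjusted p = 5.9e-08), Nrp1 at 1.60 (SE 0.22, adjusted p = 1.17e-06) and Epha2 at 0.23 (SE 0.04, adjusted p = 3.07e-05). The median log2 fold change of the members was -0.211 and that of all genes 0.012.

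The members that rose with pioglitazone in PPFP cells were 5 of the 28 ligands and 2 of the 13 receptors tested, where 7.63% of all genes rose. Sema4b had the smallest adjusted p, at 0.85 (SE 0.06, adjusted p = 0.000539), and Sema5a followed at 0.69 (SE 0.05, adjusted p = 0.000713). Reln rose from 19.4 ± 2.79 to 36.5 ± 0.356 CPM (mean ± SD, n = 3), at 0.91 (SE 0.11, adjusted p = 0.00395), and Ntn1 from 6.01 ± 0.769 to 11.6 ± 0.672 CPM, at 0.95 (SE 0.12, adjusted p = 0.00454). In all of these, which were chosen by passing, the lowest library with pioglitazone was above the highest without it. Of all genes 34.1% had no overlap in either direction. The receptors Plxna2 and Nrp2 rose at 0.90 (SE 0.09, adjusted p = 0.00202) and 0.37 (SE 0.06, adjusted p = 0.00822), and the ephrin Efnb1 at 0.50 (SE 0.07, adjusted p = 0.00747).

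Those that fell were likewise 5 of the 28 ligands and 2 of the 13 receptors, where 7.13% of all genes fell. Sema3g gave -0.96 (SE 0.12, adjusted p = 0.00393), Sema4c -0.74 (SE 0.13, adjusted p = 0.0141), Sema3a -0.45 (SE 0.09, adjusted p = 0.0192), Efna1 -0.53 (SE 0.06, adjusted p = 0.00321) and Efnb2 -0.53 (SE 0.10, adjusted p = 0.015). The receptors were Plxna3 at -0.55 (SE 0.14, adjusted p = 0.0432) and Ephb3, an Eph receptor of gut epithelium, at -0.38 (SE 0.06, adjusted p = 0.0112). No library with pioglitazone reached the lowest without it for any of these 7, which were chosen by passing (34.1% of all genes had no overlap in either direction). With 1 library left out, between 8 and 20 members passed, and 8 did so without PPFP library 3 of the vehicle group and 9 without PPFP library 2 of the pioglitazone group.

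**Figure D3:**
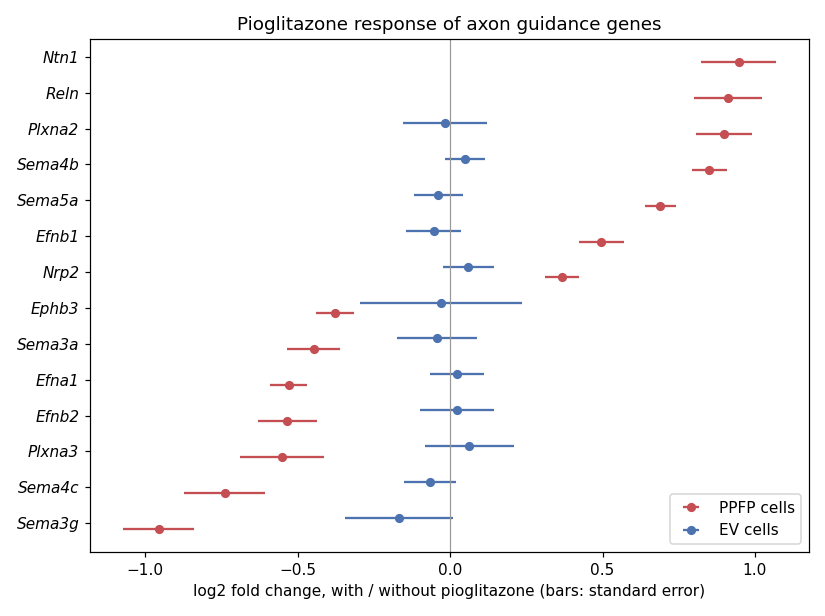
Log2 fold change with over without pioglitazone (x axis) of the 14 members that passed the test in PPFP cells (red), beside the value of the same gene in EV cells (blue), with standard errors over 3 libraries per group; Ntn1 and Reln were too low in EV cells to be tested. The red points run from Sema3g at -0.96 to Ntn1 at 0.95, and they were chosen by passing, while the blue points lie near 0.

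In EV cells, 0 of 42 members were called by edgeR's quasi-likelihood test, 0 passed at any fold change and 0 had an unadjusted p under 0.05, against 0%, 0% and 0.158% of all genes, and DESeq2 and edgeR's classic test called 0 too. With the replicate number as a block the count of calls stayed at 0 (0% of all genes), and 0 members passed (0.00986% of all genes). There 2 members had an unadjusted p under 0.05, a count for which no share of all genes was computed. The median log2 fold change of members was -0.035 and that of all genes -0.002, and 1 of 42, Sema4b, had no overlap between its EV groups (1.46% of all genes had none), at 0.05 (SE 0.07, adjusted p = 1).

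Whether the response to pioglitazone differed between the lines was tested as an interaction over all 12 libraries. Of 45 members, 0 were called by edgeR's quasi-likelihood test, against 0.925% of all genes, 13 had an unadjusted p under 0.05 (28.9%, against 13.3%), and DESeq2 and edgeR's classic test called 0. At any fold change 5 passed (11.1%, against 2.64% of all genes). The response was higher in PPFP cells for Sema4b, 0.79 (SE 0.08, adjusted p = 0.000732), Plxna2, 0.90 (SE 0.16, adjusted p = 0.0152), and Sema5a, 0.72 (SE 0.10, adjusted p = 0.00311). These 3 are 6.67% of members, against 1.38% of all genes. It was lower for Efna1, -0.57 (SE 0.11, adjusted p = 0.0173), and Sema4c, -0.69 (SE 0.16, adjusted p = 0.0477) (4.44%, against 1.26%). Sema4c lost the threshold in 13 of 19 alternatives (adjusted p up to 0.146), Efna1 in 5 and Plxna2 in 2. Of the members that did not pass, Efnb1, at 0.54, gained the threshold most often, in 8 of 19. With a block for the replicate number within each line, 22 members passed (48.9%, against 34.3% of all genes) and 1 (2.22%, against 2.57%), Ntn3, was called as lower, at a log2 difference of -1.20 (SE 0.28, adjusted p = 0.00497). Fyn, a kinase downstream of several of these receptors, Reln, Ntn1 and Nrp1 were near or at the floor in EV cells, and their responses are not compared between the lines here.

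**Figure D4:**
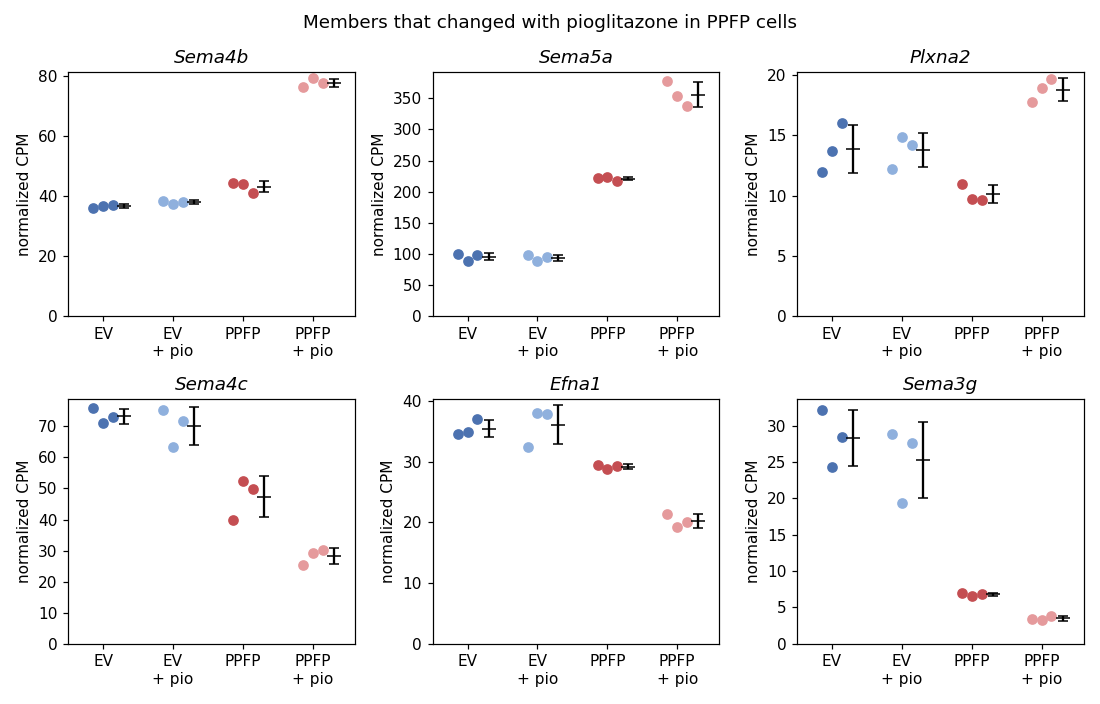
Normalized CPM (y axes, each from 0) of the 5 members whose pioglitazone response differed between the lines and of Sema3g, with 1 point per library in the 4 groups and the mean ± SD of 3 libraries. EV groups with and without pioglitazone lie at about the same height, and in Sema4b the PPFP libraries move from between 41.1 and 44.2 CPM to between 76.3 and 79.1 CPM.

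Plxna2 and Sema4b show what this interaction adds to the comparisons between the lines. Plxna2 was at 12, 13.7 and 16 CPM in EV and 11, 9.69 and 9.67 CPM in PPFP cells without pioglitazone, and at 12.2, 14.9 and 14.2 CPM in EV and 17.8, 18.9 and 19.7 CPM in PPFP cells with it. The PPFP libraries were thus the lowest of the 4 groups without pioglitazone and the highest with it. The position of Plxna2 below EV cells without pioglitazone is the less firm of these values, because its adjusted p was between 0.00935 and 0.123 over the alternatives. For 8 members called between the lines with pioglitazone alone (Efnb3, Plxna3, Plxnd1, Sema4a, Sema4b, Sema4c, Sema4f and Sema6c), the interaction passed for Sema4b and Sema4c, and the adjusted p of the other 6 was between 0.182 and 0.934. With the replicate block within each line it also passed for Plxna3 (adjusted p = 0.000305), Sema6c (adjusted p = 0.00292), Sema4f (adjusted p = 0.00765) and Plxnd1 (adjusted p = 0.0269), each with the lower response in PPFP cells, while Efnb3 and Sema4a were at 0.491 and 0.703. Without pioglitazone, Efnb3 was called in 2 of 13 alternatives, 1 of them edgeR's classic test (adjusted p = 0.0411). Sema4f was called there with EV library 3 left out (-1.259, adjusted p = 0.00892), and Plxnd1 reached -1.027 in an alternative.

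Signalling partners of these ligands and receptors, inside the cell and at its surface, were called in both directions. Of 83 listed partners (kinases, cytoskeletal effectors, adhesion molecules and other regulators), 72 were in the table and 57 were tested without pioglitazone, of which 5 were called as higher and 3 as lower in PPFP cells, with a median log2 fold change of 0.044. These calls made up 14% of the partners tested, close to the 14.6% of all genes. With pioglitazone 5 of 58 were called as higher and 4 as lower, 15.5% against 19.7% of all genes, so that neither share was above that of all genes. Fyn, a Src family kinase that phosphorylates Dab1, rose from 0.0672 ± 0.0577 to 1.73 ± 0.292 CPM (SD, n = 3) without pioglitazone, at a log2 fold change of 4.61 (SE 0.45, adjusted p = 0.000185) and with 1 to 4 counts in the EV libraries. The p21-activated kinases Pak1, Pak6 and Pak3 rose at 1.90 (SE 0.16, adjusted p = 7.94e-05), 1.55 (SE 0.48, adjusted p = 0.0334) and 1.46 (SE 0.12, adjusted p = 7.24e-05), and the fifth of those called as higher was Rgma, a repulsive ligand of neogenin, at 1.40 (SE 0.12, adjusted p = 0.000107). Among those called as lower were Dpysl5, a collapsin response mediator, at -1.57 (SE 0.24, adjusted p = 0.00132), and Rgs3, which binds ephrin B tails, at -1.51 (SE 0.20, adjusted p = 0.000747).

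The other list held 19 ligands and receptors that share partners with reelin, neuropilins or plexins, of which 11 were tested, 2 called as higher and 1 as lower in both comparisons between the lines (27.3%, against 14.6% of all genes without and 19.7% with pioglitazone). Itga1, a collagen-binding integrin subunit, rose from 5.3 ± 0.591 to 26.2 ± 1.82 CPM without pioglitazone, at 2.33 (SE 0.12, adjusted p = 1.17e-05), and Met, the receptor of hepatocyte growth factor, from 31.2 ± 4 to 65.7 ± 5.03 CPM, at 1.09 (SE 0.12, adjusted p = 0.000276). Vegfc, a growth factor that binds Nrp2, fell from 14.9 ± 1.82 to 6.25 ± 0.148 CPM, at -1.23 (SE 0.13, adjusted p = 0.00029). With pioglitazone in PPFP cells 2 of the 58 signalling partners tested were called (3.45%, against 2.42% of all genes), Fyn as higher at 1.03 (SE 0.17, adjusted p = 0.00969) and Dpysl2, another collapsin response mediator, as lower at -1.24 (SE 0.09, adjusted p = 0.000713). Rgma and Dpysl2 were named after their values were seen.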

How the data were processed

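RNA was measured in 12 libraries (PPFP and EV cells, with and without pioglitazone, 3 each), as TruSeq libraries of paired reads. The authors aligned reads to rn4 with TopHat2 2.0.11 and counted them per gene with HTSeq 0.6.1p1 in intersection-strict mode, and the deposited table holds these raw counts by gene symbol, neither normalized nor pooled. Whether counting used strand is not given in the sources used here, so that overlapping and antisense genes may share reads. The deposited peak lists were not used here, because no rn4 annotation was at hand to assign peaks to genes.

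The analysis used edgeR 4.0.16 under R 4.3.3 (filterByExpr, TMM, quasi-likelihood test, Benjamini-Hochberg adjustment over all genes), separately on the 6 libraries of each comparison and, for the interaction, on all 12. Every p not otherwise named comes from this test. A call needed a fold change above 2 with an adjusted p under 0.05, and "passed", "rose" and "fell" refer to an adjusted p under 0.05 alone. SE is that of the log2 fold change, derived from the F statistic. CPM used TMM factors over 12 libraries (0.926 to 1.051). A group with at most 3 counts in every library was at the floor, and folds against it are lower bounds from 3 counts per library, for counting error only. The biological coefficient of variation was 0.126 to 0.156 without a block, and log CPM of replicates correlated at 0.992 to 0.997. With the replicate block the coefficient was 0.0365 for pioglitazone in PPFP cells, 0.0372 in EV cells and 0.0363 for the interaction. Between the lines it was 0.143 without and 0.154 with pioglitazone. In simulated counts of 10182 genes for PPFP versus EV cells without pioglitazone, 94 of 98 genes changed 4-fold were called, with 4 false calls.

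The members, the pathway lists and the marker lists were chosen with earlier results of these data known. Members called in any comparison are given for every library, other members by counts or by their fold change, and of the pathway lists up to 4 higher and 4 lower genes with the largest change among those called in PPFP versus EV cells without pioglitazone and a mean of at least 1 CPM. Alternatives were DESeq2 1.42.0, edgeR's classic test, RLE factors, library size alone, no filter, 10 counts in every library, all 12 libraries in 1 fit, the replicate number as a block and leaving out each library.

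Same-numbered libraries deviated together from their group means within PPFP cells (correlations 0.744, 0.465 and 0.433 for numbers 1 to 3). They did so too within EV cells (0.532, 0.729 and 0.773), and the numbers were taken to pair the libraries for pioglitazone. In PPFP cells, vehicle library 2 also correlated with pioglitazone library 3 (0.536), and vehicle library 3 with pioglitazone library 2 (0.351). These values therefore do not separate numbers 2 and 3 there. The tests of pioglitazone carry no block, as designed, and blocked values are given beside them. Between the lines same-numbered libraries did not deviate together (-0.252, 0.317 and -0.322 without pioglitazone). The pairing rests on the correlations within each line and on the methods, which name 3 independent experiments. Some genes of the lists are not reported here by name.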

Additional observations from a re-analysis of the deposited data

Results flagged for a closer look

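The response to pioglitazone differed between PPFP and EV cells for 5 members by the interaction term (edgeR's quasi-likelihood test over all 12 libraries, Benjamini-Hochberg adjusted over all genes), each by less than 2-fold. The log2 difference, PPFP minus EV cells, was 0.7876 for Sema4b, 0.716 for Sema5a and 0.8993 for Plxna2, and -0.5651 for Efna1 and -0.6872 for Sema4c. In all 5 the PPFP libraries with and without pioglitazone did not overlap, which held for 34.1% of all genes. The 5 were chosen by a test on these same libraries. Sema4b and Sema5a passed under all 19 alternatives, Plxna2 under 17, Efna1 under 14 and Sema4c under 6. Efnb1, which did not pass in the main test (log2 difference 0.537), passed under 8. With 1 library left out, the adjusted p of Plxna2 was 0.056 without PPFP library 2 or 3 of the vehicle group, that of Efna1 reached 0.0663 and that of Sema4c 0.146. With a block for the replicate number within each line all 5 passed, Sema4b at an adjusted p of 2.94e-07 and Sema5a at 2.11e-07.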

How the results depend on the processing

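Over 6 leave-one-out fits, between 18 and 19 members were called between the lines without pioglitazone and 24 with it, and no member that was called changed direction under any alternative. The filter for 10 counts in every library left 36 members to test without and 34 with pioglitazone and called 12 and 16 of them, since it removes genes that are near 0 in 1 line. Library size alone shifted the median of all genes to -0.08 without and -0.125 with pioglitazone, turned the split of all called genes to 664 higher and 853 lower and to 817 and 1241, and called 18 and 25 members. For pioglitazone in PPFP cells, where 0 members were called, DESeq2, edgeR's classic test and library size alone called 1 each (Nrp1 in both tests, Sema3g with library size alone), and leave-one-out fits called between 0 and 2. These were Nrp1 and Sema4f without PPFP library 1 of the vehicle group, Ntn1 without its library 2, and Sema3g without PPFP library 3 of the pioglitazone group. Of the signalling partners, 2 were called there, but 1 with library size alone, 1 with all 12 libraries in 1 fit and between 1 and 2 with a library left out. The cause of these moves was not tested. At any fold change 14 members passed in PPFP cells and between 8 and 20 with 1 library left out, and for the interaction 5 passed and between 2 and 6. Between the lines without pioglitazone 30 passed, but 21 without PPFP library 3, and the threshold was lost in 11 of 14 alternatives by Efnb1, 9 by Plxnb2, 8 by Nrp2, 7 by Epha2, 6 by Efna1 and Sema4b, 5 by Plxna2, 3 by Ephb2 and 2 by Sema3b and Sema4d. The threshold was gained there in 6 of 14 alternatives by Plxna3, 3 by Sema4f and 1 by Ephb3, Sema3c and Unc5a, and in 2 of 13 by Efnb3. With pioglitazone it was lost in 7 of 13 alternatives by Sema4a and 4 of 13 by Efnb3, in 5 of 14 by Efna4 and in 2 of 14 by Plxna2 and Sema3b. It was gained there in 2 of 14 by Ephb2, Ephb3 and Sema4d and in 1 by Sema3f. For pioglitazone in PPFP cells it was lost in 5 of 14 by Plxna3, 4 by Efnb2 and Sema3a, and 2 by Ephb3, Nrp2 and Sema4c.

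With the replicate number as a block, 3 members were called for pioglitazone in PPFP cells, 1 for the interaction and 0 in EV cells. Between the lines, where the numbers did not pair the libraries, 17 were called without and 24 with pioglitazone, and Sema4a was the call lost (adjusted p = 0.113). Depth limits what can be said of the 18 members not tested in any pairwise comparison.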
